A study of Apis mellifera with 12 samples.

Results

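Brains of 4 honey bee (Apis mellifera) queens treated with carbon dioxide were compared with brains of 4 virgin queens, 8 of the 12 libraries sequenced in the study. The members of the comparison were taken from the treatment labels, and 13038 of the 15314 genes in the count table were tested, those whose counts in the 12 libraries added up to 10 or more. CO2-treated queens (numbers 5, 2, 1 and 7) had 2 sessions of narcosis of 10 minutes each, on days 6 and 7 of age, in a bag flushed with the gas. Per the methods the treated queens were placed in the bag together, so these 4 replicate animals and not the exposure. Virgin queens (numbers 6, 4, 2 and 1) were caged as controls and received no gas. All 8 were unmated sisters of commercial, mainly ligustica, stock from 1 source colony, were kept in a small colony each behind a queen excluder, and were taken at 8 days of age. Each queen gave 1 library from 1 dissected brain, so the spread reported here is that between sisters of a single family. No eggs were seen on dissection of either group. The remaining 4 libraries came from naturally mated queens and were not part of the contrast. They entered the choice of genes tested, the scaling factors, the average levels and the shared estimate of the spread. Through the scaling factors and the spread they also bear on the fold changes described here.

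A young honey bee queen flies out to mate within days of leaving her cell and starts to lay soon after. Beekeepers use narcosis with carbon dioxide to bring unmated or inseminated queens into lay, because the gas stops mating flights and promotes ovary activation. A queen that has begun to lay stays in the dark nest, and light detection, smell, metabolism, hormone signalling and immunity are among the functions examined here.

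Between 12434733 and 19950311 reads were counted on genes in CO2-treated queens and between 13118041 and 15542612 in virgin queens. Levels are given as CPM, the counts of a gene rescaled to a common library total after edgeR's TMM factors, and they are not divided by gene length, so they are compared between queens and never between genes. Scaling factors ranged from 1.09 to 1.29 in CO2-treated queens and from 1.06 to 1.37 in virgin queens. A level of 3 counts corresponds to between 0.150 and 0.241 CPM before that scaling, a floor that covers counting error only. The virgin queens differed more among themselves than the CO2-treated queens did. The median SD of log2 CPM was 0.26 over the CO2-treated queens and 0.48 over the virgin queens, and 83.7% of genes had the larger SD in virgin queens. On the first component of the 8 libraries, which held 41.6% of the variation, CO2-treated queens 5, 2, 1 and 7 scored -29.6, -31.5, 14.7 and -18.2, against -50.0 and -2.15 for virgin queens 6 and 4 and 40.7 and 76.0 for virgin queens 2 and 1. Virgin queens 2 and 1 thus had the highest scores on this component, and virgin queen 6 had the lowest. The second component, with 23.3% of the variation, did not pair virgin queens 2 and 1. Virgin queen 2 scored highest there and virgin queen 6 next (38.5). Virgin queen 1 (-14.95) lay within the range of the CO2-treated queens (-24.63 to -6.20). Most list medians and part of the gene values are also given without virgin queens 2 and 1, a choice made after the data were seen. No fit left out virgin queens 6 and 4 together.

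The labelled tissue could be checked only in part, because few neuronal genes carry a name in the sources used here. The gene whose Drosophila ortholog is syt (GB54319), synaptotagmin, a calcium sensor of synaptic vesicles, had 82.8, 170, 53.3 and 228 CPM in CO2-treated queens 5, 2, 1 and 7, against 129, 136, 34.0 and 31.8 CPM in virgin queens 6, 4, 2 and 1. The ortholog of brp (GB51381), a protein of the presynaptic active zone, stayed between 0.762 and 1.75 CPM in CO2-treated queens and between 0.215 and 4.25 CPM in virgin queens. Genes of other tissues were also counted in every library. RfaBp (GB54507), the ortholog of the apolipophorin precursor made by fat body, had between 5489 and 8516 CPM in CO2-treated queens and between 2146 and 7084 CPM in virgin queens.

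Only 2 of the 13038 genes, 0.0153%, passed the threshold (edgeR's quasi-likelihood F-test, Benjamini-Hochberg adjusted p below 0.05 over every gene tested), and both rose in CO2-treated queens. No gene fell past that threshold, and the smallest adjusted p among genes with a negative fold change was 0.456. At an unadjusted p under 0.05 there were 758 genes (5.81%), 341 with a positive (2.62%) and 417 with a negative (3.2%) log2 fold change. In 578 genes (4.43%) the groups did not overlap, with the 4 CO2-treated queens above the 4 virgin queens in 267 (2.05%) and below them in 311 (2.39%). The median log2 fold change over all genes was -0.02. Among the 10297 genes whose average log2 CPM reached 1, the fold change was at least 2 in 214 genes with higher levels in CO2-treated queens and in 55 with lower levels, and at least 8 in 4 and 2 genes. For these 10297 genes the median SE of the log2 fold change was 0.28, and the median 95% interval reached 1.51-fold to either side.

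**Figure D1:**
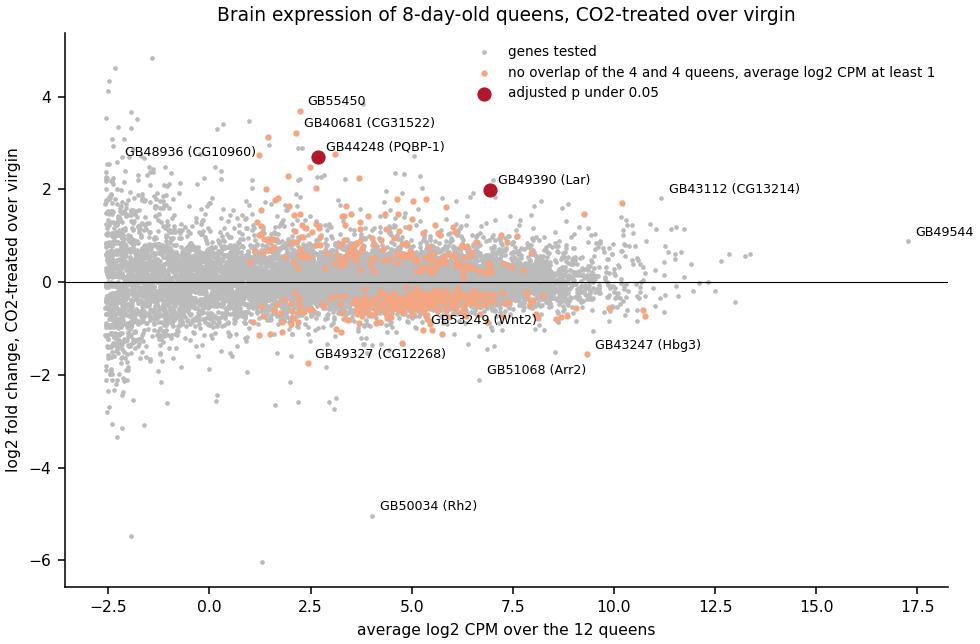
Log2 fold change of CO2-treated over virgin queens (vertical axis) against the average log2 CPM over the 12 queens (horizontal axis), 1 point per gene tested. Red points are the 2 genes past an adjusted p of 0.05, GB49390 (Lar) and GB44248 (PQBP-1), both above 0, and orange points are genes reaching an average log2 CPM of 1 whose 4 CO2-treated and 4 virgin queens did not overlap.

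GB49390, the ortholog of Lar, rose about 4-fold in CO2-treated queens. Lar is a receptor tyrosine phosphatase that in Drosophila guides axons and shapes synapses. Its level was 227, 181, 298 and 230 CPM in CO2-treated queens 5, 2, 1 and 7, against 49.7, 60.3, 48.2 and 77.2 CPM in virgin queens 6, 4, 2 and 1. The lowest CO2-treated queen thus lay more than 100 CPM above the highest virgin queen. The log2 fold change was 1.99 (SE, the standard error, 0.21; quasi-likelihood adjusted p = 0.00482), a 3.98-fold difference with a 95% interval from 2.88 to 5.48. It stayed past the threshold in all 8 fits that each left out 1 queen, with log2 fold changes from 1.85 to 2.15, and also without virgin queens 2 and 1 (2.09, adjusted p = 0.0313 by the same test). Lar formed the list of synaptic and axon guidance genes together with syt and brp, of which none but Lar passed the threshold. The call was lost with total counts in place of TMM factors (adjusted p = 0.0569), in a fit to these 8 queens alone (0.0965) and with a block for queen number (0.19).

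GB44248, the ortholog of PQBP-1, rose 6.51-fold (95% interval 3.74 to 11.3). PQBP-1, polyglutamine binding protein 1, is a nuclear protein linked to pre-mRNA splicing. It had 10.0, 13.3, 22.1 and 16.9 CPM in CO2-treated queens 5, 2, 1 and 7, against 1.22, 2.47, 2.76 and 3.02 CPM in virgin queens 6, 4, 2 and 1. Every CO2-treated queen was above every virgin queen by more than 3 times. The log2 fold change was 2.70 (SE 0.37, quasi-likelihood adjusted p = 0.0351). The call was less firm than that of Lar: of the 8 fits that each left out 1 queen, only that without CO2-treated queen 5 kept it past the threshold (adjusted p = 0.0393 by the same test), and the adjusted p of the other 7 lay between 0.0608 and 0.175. Its log2 fold change stayed between 2.49 and 2.86 in those fits. The call was also lost without virgin queens 2 and 1 (log2 fold change 3.06, adjusted p = 0.198), with total counts (0.201), in the 8 queens alone (0.113), with a block for queen number (0.19) and with the suffix of the sample titles as a term (0.0571).

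GB48936 and GB40681 came next by p among genes with separated groups, and neither passed the threshold. GB48936, the ortholog of CG10960, which encodes a predicted sugar transporter in Drosophila, had 4.62, 3.95, 11.6 and 4.17 CPM in CO2-treated queens 5, 2, 1 and 7, against 0.287, 0.842, 0.444 and 1.13 CPM in virgin queens 6, 4, 2 and 1. Its log2 fold change was 3.13 (SE 0.47, quasi-likelihood adjusted p = 0.0619). GB40681, the ortholog of CG31522, listed under fatty acid metabolism and in Drosophila a member of the family of very long chain fatty acid elongases, had 10.9, 7.28, 2.56 and 3.63 CPM in CO2-treated queens, against 1.0, 0.562, 0.296 and 0.769 CPM in virgin queens (log2 fold change 3.22, adjusted p = 0.115 by the same test). These were the only other genes with an adjusted p under 0.25.

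GB43847, the ortholog of dmrt93B, a transcription factor of the doublesex and mab-3 related family, had 4.68, 5.41, 5.50 and 8.38 CPM in CO2-treated queens, against 1.87, 1.18, 1.13 and 2.66 CPM in virgin queens 6, 4, 2 and 1 (log2 fold change 1.81, adjusted p = 0.456). GB44263 is the ortholog of CG7097, a Ste20-type protein kinase called happyhour in Drosophila. It measured 46.5, 62.8, 73.4 and 60.4 CPM in CO2-treated queens and 19.7, 31.9, 26.7 and 38.1 CPM in virgin queens, and its log2 fold change was 1.06 with the same adjusted p of 0.456. In both genes the groups were separated while the 4 virgin queens stayed within about 2.4-fold of each other. GB53414, the ortholog of CG31711, averaged 39.7 ± 20.5 CPM in CO2-treated queens and 11.5 ± 5.27 CPM in virgin queens (SD, n = 4 each). GB55330, the ortholog of CG3690, averaged 9.75 ± 6.23 CPM in CO2-treated queens and 1.46 ± 1.39 CPM in virgin queens (SD, n = 4 each). GB42923, the ortholog of veg, had 8.66, 13.4, 10.6 and 13.4 CPM in CO2-treated queens 5, 2, 1 and 7, against 4.81, 1.63, 1.18 and 0.717 CPM in virgin queens 6, 4, 2 and 1 (log2 fold change 2.48, adjusted p = 0.832). Among IDs without a name in the sources, GB51532, GB44006, GB45938 and GB47206 had log2 fold changes of 2.03, 2.24, 2.75 and 2.29, with adjusted p values between 0.691 and 0.832.

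The leading genes with lower levels in CO2-treated queens showed smaller fold changes. GB49327, the ortholog of CG12268, a member of the fatty acyl-CoA reductases that make fatty alcohols in Drosophila, had 2.42, 2.08, 1.56 and 2.11 CPM in CO2-treated queens 5, 2, 1 and 7, against 9.33, 2.86, 10.8 and 4.71 CPM in virgin queens 6, 4, 2 and 1. The CO2-treated queens were nearly level, whereas virgin queen 4 came close to them. The log2 fold change was -1.75 (SE 0.41, quasi-likelihood adjusted p = 0.688). GB53249, the ortholog of the secreted signalling protein Wnt2, had 19.2, 35.8, 44.0 and 30.0 CPM in CO2-treated queens, against 57.7, 58.6, 62.5 and 84.4 CPM in virgin queens (log2 fold change -1.03, adjusted p = 0.807). GB45188, the ortholog of CG15629, averaged 10.6 ± 0.978 CPM in CO2-treated queens and 19.7 ± 5.31 CPM in virgin queens (SD, n = 4 each). GB49132, an ID without a name, was even within both groups, with 21.1, 20.7, 20.4 and 22.7 CPM in CO2-treated queens, against 35.4, 31.3, 31.8 and 29.6 CPM in virgin queens (log2 fold change -0.59, adjusted p = 0.702). The further unnamed IDs GB40093, GB49726, GB52193 and GB42900 had log2 fold changes of -1.08, -1.31, -1.15 and -1.07.

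GB45748, an ID without a name that was picked after its values were seen, depended on virgin queen 2. It had 2.60, 1.77, 1.44 and 1.61 CPM in CO2-treated queens 5, 2, 1 and 7, against 20.7, 12.6, 0.641 and 15.5 CPM in virgin queens 6, 4, 2 and 1. Virgin queen 2 was lower than any CO2-treated queen, and the other 3 virgin queens were about 5 times above the highest of them or more. With all queens the log2 fold change was -2.73 (quasi-likelihood adjusted p = 0.702). Without virgin queen 2 it was -3.13 (adjusted p = 0.00236 by the same test), the only gene that fell past the threshold in any fit that left out a single queen.

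**Figure D2:**
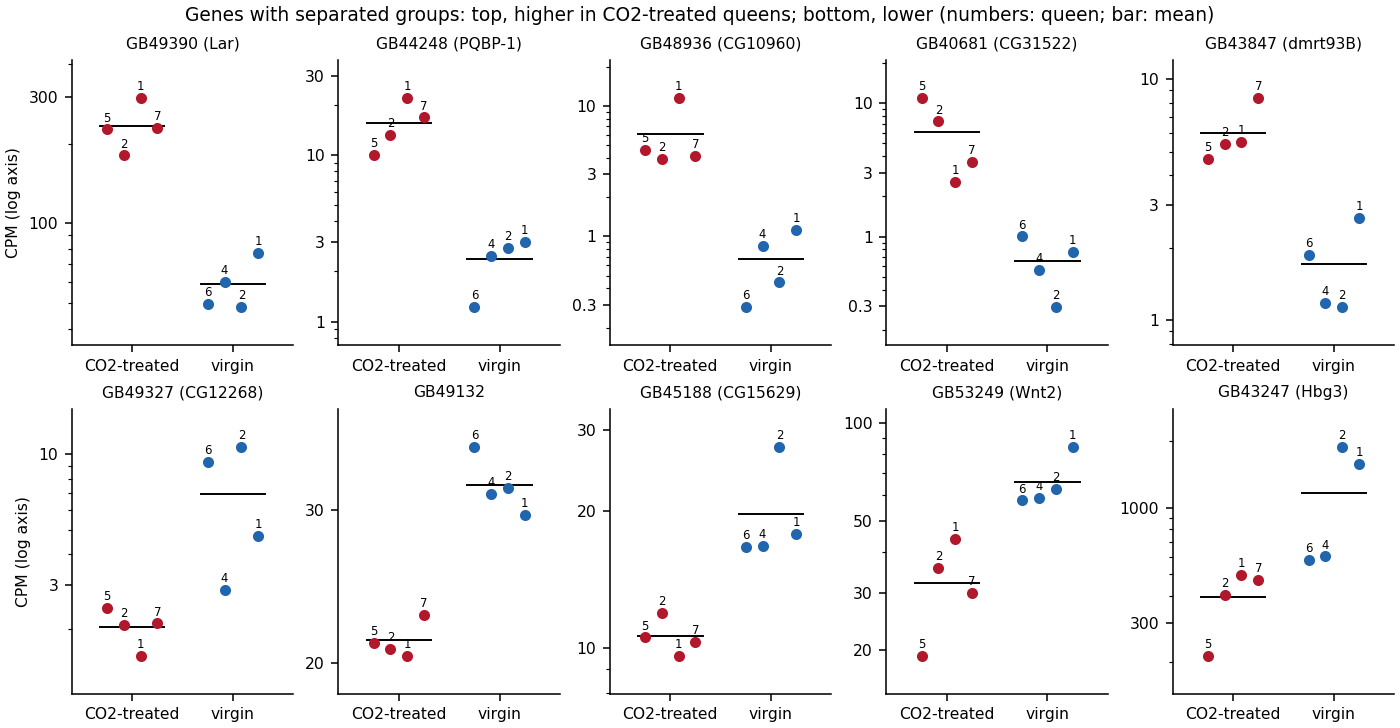
CPM on a log axis in each queen for 5 genes with higher levels in CO2-treated queens (top row) and 5 with lower levels (bottom row); red points are CO2-treated queens, blue points virgin queens, numbers name the queen and bars are means. In all 10 genes the groups do not overlap, and only GB49390 (Lar) and GB44248 (PQBP-1) passed the adjusted threshold.

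All 8 genes of the photoreceptor list had negative log2 fold changes, with a median of -1.43, against -0.02 over all genes, but none passed the adjusted threshold. Like every list below, it holds genes that the study had picked by tests on these same 12 queens, so its direction is not independent evidence. An unadjusted p under 0.05 was found in 5 of the 8 (3.2% of all genes in that direction). Of the 592 genes with an ortholog name, all picked in that way, 29 had such a p with a negative value. GB50034, the ortholog of Rh2, a rhodopsin of the ocelli in Drosophila, had 0.520, 0.312, 2.38 and 2.06 CPM in CO2-treated queens 5, 2, 1 and 7, against 1.0, 15.1, 27.9 and 130 CPM in virgin queens 6, 4, 2 and 1. Virgin queen 6 lay among the CO2-treated queens, and virgin queen 1 carried most of the group mean. The log2 fold change was -5.04 (SE 1.44, quasi-likelihood adjusted p = 0.807), and -3.47 without virgin queen 1.

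GB51068, the ortholog of Arr2, the arrestin that switches off activated rhodopsin, had 33.1, 29.8, 72.6 and 45.2 CPM in CO2-treated queens, against 30.1, 108, 201 and 437 CPM in virgin queens 6, 4, 2 and 1. GB45512 (ninaC), a myosin with a kinase domain in photoreceptors, had 3.23, 1.92, 5.31 and 3.54 CPM in CO2-treated queens, against 1.08, 8.82, 5.87 and 34.1 CPM in virgin queens. GB41758 (Gbeta76C), the beta subunit of the eye G protein, had 7.68, 6.34, 12.1 and 9.37 CPM in CO2-treated queens, against 7.46, 15.3, 20.6 and 58.3 CPM in virgin queens. In these genes virgin queen 1 was the highest of all 8 queens, and in Rh2, Arr2, ninaC and Gbeta76C virgin queen 6 was within or below the range of the CO2-treated queens. GB46302 (norpA), the phospholipase C of phototransduction, followed the same order of extremes, with 2.65 CPM in virgin queen 6 and 46.8 CPM in virgin queen 1, against 3.59 to 14.6 CPM in CO2-treated queens. Their log2 fold changes were -2.10 for Arr2, -1.83 for ninaC, -1.52 for Gbeta76C and -1.34 for norpA, with adjusted p values of 0.832 and, for norpA, 0.833. Without virgin queen 1 alone they were -1.33, -0.59, -0.71 and -0.54 in the same order, and 1 of the 8 genes of the list had an unadjusted p under 0.05. In that fit 398 of 12969 genes had such a p with a negative value, against 417 of 13038 with all queens.

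Only GB51189 (chp), chaoptin, an adhesion protein of the photoreceptor membrane, had separated groups (2.39% of all genes in that direction): 15.7, 14.7, 20.9 and 10.0 CPM in CO2-treated queens, against 25.2, 21.1, 24.0 and 40.5 CPM in virgin queens 6, 4, 2 and 1 (log2 fold change -0.85, adjusted p = 0.832). GB40139 (ninaA), a chaperone of rhodopsin, and GB53116 (Cpn), calphotin, a calcium-binding protein, had log2 fold changes of -0.87 and -1.34, and Cpn was highest in virgin queen 6 (39.5 CPM). The summed level of the 8 genes was 144, 86.2, 192 and 125 CPM in CO2-treated queens 5, 2, 1 and 7, against 155, 226, 458 and 867 CPM in virgin queens 6, 4, 2 and 1. Without virgin queens 2 and 1 the median log2 fold change of the list was -0.55, ninaA had 0.21, and none of the 8 genes had an unadjusted p under 0.05. That fit kept only virgin queens 6 and 4. In it 196 of 12907 genes had such a p with a negative value, against 417 of 13038 with all queens. Fewer photoreceptor cells in a dissected brain and less RNA per cell cannot be told apart in these bulk libraries, and the same holds for the lists below.

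**Figure D3:**
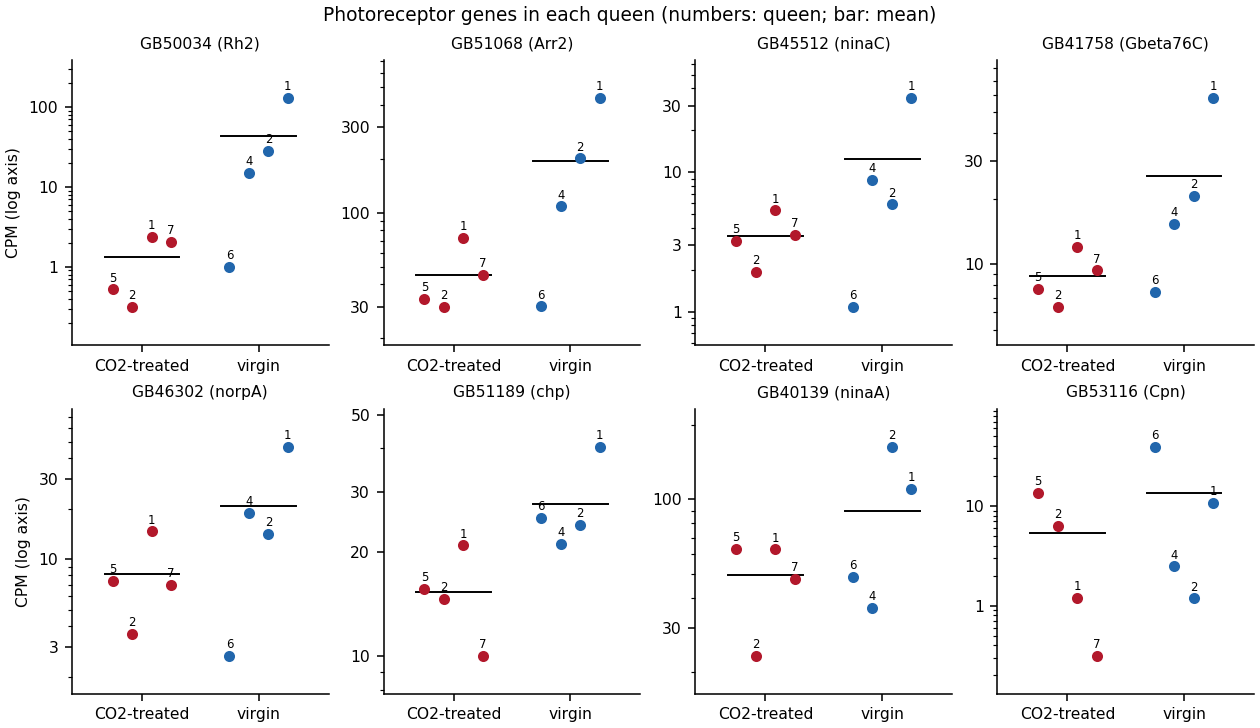
CPM on a log axis of the 8 photoreceptor genes in each queen; red points are CO2-treated queens, blue points virgin queens, numbers name the queen and bars are means. Virgin queen 1 is the highest of the 8 queens in 6 of the 8 genes, and virgin queen 6 lies within or below the range of the CO2-treated queens in Rh2, Arr2, ninaC, Gbeta76C and norpA.

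Genes of smell showed no common direction. Odorant receptors sit in the membranes of olfactory neurons, and of 10 with a name, 6 had positive and 4 negative log2 fold changes, with a median of 0.33 (0.23 without virgin queens 2 and 1) and none past the threshold. GB52376 (Or43a) had 6.29, 3.95, 10.3 and 3.14 CPM in CO2-treated queens, against 1.94, 4.38, 3.70 and 1.49 CPM in virgin queens 6, 4, 2 and 1 (log2 fold change 1.03). GB52362 (Or49b) averaged 0.740 ± 0.594 CPM in CO2-treated queens and 2.26 ± 1.85 CPM in virgin queens (SD, n = 4 each). The remaining receptors named by rule, GB40665 (Or49a) and GB48703 (Or85b), had log2 fold changes of -0.82 and 0.96, and that of Or49a was 0.015 without virgin queens 2 and 1.

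Odorant binding and chemosensory proteins carry small hydrophobic molecules in the fluid around sensory neurons. Of 9 with a name, 5 had positive and 4 negative log2 fold changes, with none past the threshold. Their median was 0.83, and 0.17 without virgin queens 2 and 1. GB53372 (Pbprp2, Obp4 in the bee) had 286, 493, 694 and 441 CPM in CO2-treated queens, against 678, 466, 922 and 1021 CPM in virgin queens (log2 fold change -0.69, adjusted p = 0.836). GB46223 (Obp56d, Obp14 in the bee) varied widely inside both groups, with 45.0, 19.6, 1.5 and 105 CPM in CO2-treated queens, against 45.1, 3.76, 4.24 and 0.410 CPM in virgin queens. GB46226 (Obp56g, Obp17 in the bee) averaged 33.9 ± 10.4 CPM in CO2-treated queens and 16.8 ± 14.5 CPM in virgin queens (SD, n = 4 each). GB52326 (PebIII) was near or under the floor of 3 counts in both groups, so no fold is given.

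Carbonic anhydrase, which interconverts carbon dioxide and bicarbonate, was represented by 1 named gene, GB55070 (CAH2). It had 3.87, 10.3, 4.44 and 5.6 CPM in CO2-treated queens 5, 2, 1 and 7, against 25.1, 14.5, 10.9 and 5.64 CPM in virgin queens 6, 4, 2 and 1. Virgin queen 1 was within the range of the CO2-treated queens and CO2-treated queen 2 came close to virgin queen 2. The log2 fold change was -1.21 (SE 0.43, quasi-likelihood adjusted p = 0.832), and it was -0.77 without virgin queen 6 and -1.71 without virgin queens 2 and 1.

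Heat shock genes encode chaperones that hold or refold damaged proteins. The 3 genes whose ortholog is l(2)efl, a small heat shock protein, had log2 fold changes of -1.37 (GB45906), -0.78 (GB45910) and -0.60 (GB45913), and Hsp83 (GB45495), a cytosolic chaperone, had 0.36. GB45906 had 27.1, 85.6, 36.4 and 97.5 CPM in CO2-treated queens, against 356, 188, 53.1 and 41.6 CPM in virgin queens 6, 4, 2 and 1. The groups overlapped in all 4 genes and none passed the threshold.

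Of 31 genes listed for carbohydrate metabolism, 25 had positive and 6 negative log2 fold changes, with a median of 0.54, and the list had been chosen by the study on these same queens. Some members, Hml and GNBP1 among them, are also counted in the list of immune defense genes below. The 592 genes that carry an ortholog name, all chosen in that way, had a median of 0.40. Among them 422 had positive and 169 negative log2 fold changes, and of all 13038 genes 6199 had positive ones. Without virgin queens 2 and 1 the median of the 31 genes was 0.24. GB47079 (Hex-A), hexokinase, the first enzyme of glycolysis, had 307, 372, 176 and 341 CPM in CO2-treated queens, against 195, 232, 89.1 and 122 CPM in virgin queens 6, 4, 2 and 1 (log2 fold change 0.91, adjusted p = 0.832, and 0.49 without virgin queens 2 and 1). GB44457, the ortholog of CG11594, a predicted carbohydrate kinase, averaged 158 ± 64.1 CPM in CO2-treated queens and 79.1 ± 16.3 CPM in virgin queens (SD, n = 4 each).

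The alpha-glucosidases of the bee with a name here, which split sucrose and maltose, had log2 fold changes of opposite sign. GB43247 (Hbg3) had 213, 402, 495 and 470 CPM in CO2-treated queens 5, 2, 1 and 7, against 578, 602, 1895 and 1576 CPM in virgin queens 6, 4, 2 and 1. The groups were separated, but virgin queens 2 and 1 were far above virgin queens 6 and 4. Its log2 fold change was -1.56 (SE 0.49, quasi-likelihood adjusted p = 0.832), and -0.58 without virgin queens 2 and 1. GB54549 (Hbg2) had 27.9, 1.98, 10.1 and 2.42 CPM in CO2-treated queens, against 0.574, 2.36, 1.73 and 0.974 CPM in virgin queens. Its log2 fold change of 2.89 (adjusted p = 0.716) was 1.76 without CO2-treated queen 5.

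Among 22 genes of fatty acid and lipid metabolism, 17 had positive and 5 negative log2 fold changes, with a median of 0.53. Positive values were found in 422 of the 592 genes with an ortholog name. None of the 22 passed the threshold, and without virgin queens 2 and 1 their median was -0.12. GB53979, the ortholog of CG8552, had 390, 326, 206 and 302 CPM in CO2-treated queens, against 217, 261, 91.9 and 193 CPM in virgin queens (log2 fold change 0.68, adjusted p = 0.833). GB42219, the ortholog of the desaturase gene desat1, was at or near the floor in both groups, so no fold is given.

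The insulin and hormone genes with a name gave positive values that did not pass the test. GB49662 (InR), the insulin-like receptor, had 44.6, 43.1, 24.6 and 31.3 CPM in CO2-treated queens 5, 2, 1 and 7, against 22, 22.9, 7.25 and 16.8 CPM in virgin queens 6, 4, 2 and 1. The groups did not overlap (log2 fold change 1.06, SE 0.44, quasi-likelihood adjusted p = 0.832), and the value was 0.68 without virgin queens 2 and 1. GB43004 (PDK1), the kinase downstream of that receptor, had a log2 fold change of 0.79 with overlap. GB47224 (Eip75B), a nuclear receptor induced by ecdysone, had 179, 215, 201 and 236 CPM in CO2-treated queens, against 92.0, 184, 47.7 and 168 CPM in virgin queens (log2 fold change 0.76, adjusted p = 0.833). GB51227 (JhI-26), GB53755 (Jhe, juvenile hormone esterase, which degrades the hormone) and GB42557 (JHBP-1) had log2 fold changes of 0.57, 0.56 and 0.07. The median of these 4 hormone genes was 0.56, and 0.027 without virgin queens 2 and 1.

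Of 11 immune defense genes, 9 had positive and 2 negative log2 fold changes, with a median of 0.62, and none had an unadjusted p under 0.05. Positive values were found in 422 of the 592 genes with an ortholog name. GB50121 (Hml), hemolectin, a clotting protein of insect haemocytes, had 3261, 722, 816 and 1299 CPM in CO2-treated queens 5, 2, 1 and 7, against 1412, 556, 315 and 315 CPM in virgin queens 6, 4, 2 and 1. CO2-treated queen 5 was the highest and virgin queen 6 the next, so the groups overlapped (log2 fold change 1.23, adjusted p = 0.833). GB42981 (GNBP1), which recognises bacterial cell walls, had 124, 47.5, 25.6 and 36.5 CPM in CO2-treated queens, against 58.6, 28.4, 12.9 and 8.04 CPM in virgin queens. MP1 (GB45701), a protease of the melanization cascade, and srp (GB50930), a GATA factor of blood cells, had log2 fold changes of 0.91 and 0.88, which were 0.14 and 0.042 without virgin queens 2 and 1. Without these queens the median of the list was 0.042, and without CO2-treated queen 5 it was 0.31. Without virgin queen 6 it was 1.44, and 8 of the 11 genes had a positive value with an unadjusted p under 0.05, as did 503 of 13005 genes in that fit, against 341 of 13038 with all queens.

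Cytochrome P450 enzymes oxidise hormones and foreign compounds, and 15 of the genes tested carried such a name in the study's lists. Log2 fold changes were positive in 10, negative in 4 and 0 in GB40248, which had no count in either group, with a median of 0.60 (0.19 without virgin queens 2 and 1) and none past the threshold. GB49892 (Cyp6a17) had 75.5, 60.1, 14.6 and 66.1 CPM in CO2-treated queens, against 20.6, 27.4, 3.55 and 6.05 CPM in virgin queens 6, 4, 2 and 1 (log2 fold change 1.91, adjusted p = 0.832). GB43715 (Cyp9f2) had 68.8, 38.5, 30.2 and 64.7 CPM in CO2-treated queens, against 34.4, 21.8, 7.55 and 7.94 CPM in virgin queens (log2 fold change 1.5). A second gene with the Cyp6a17 ortholog, GB49885, had separated groups in the other direction, with 50.9, 69.8, 54.9 and 67.9 CPM in CO2-treated queens, against 125, 83.0, 102 and 84.6 CPM in virgin queens (log2 fold change -0.70). GB46814 (Cyp6a2) had 46.5 CPM in CO2-treated queen 5 and between 2.25 and 6.75 CPM in the other 7 queens, and its log2 fold change of 1.67 was 0.27 without CO2-treated queen 5.

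Histones package DNA, and 3 of the genes tested carried such a name in the study's lists. GB47505 (His2B) had 20.3, 14.7, 13.2 and 14.2 CPM in CO2-treated queens, against 8.97, 5.95, 4.44 and 3.95 CPM in virgin queens, with no overlap (log2 fold change 1.42, adjusted p = 0.512). GB47381 (His2A) had a log2 fold change of 1.43 (adjusted p = 0.832) with overlap and 0.74 without virgin queens 2 and 1, and GB47482 (His1) had 0.07.

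The 5 named genes for motor proteins, which run along microtubules, all had positive values. GB44709 (Klp98A), a kinesin, had 255, 83.9, 42.4 and 100 CPM in CO2-treated queens 5, 2, 1 and 7, against 41.5, 53.4, 12.1 and 20.5 CPM in virgin queens 6, 4, 2 and 1 (log2 fold change 1.92, adjusted p = 0.825). GB40933 (Dhc62B), an axonemal type of dynein heavy chain, was the only one of the 5 with separated groups (2.05% of all genes in that direction), at 9.87, 16.5, 20.8 and 17.2 CPM in CO2-treated queens, against 6.53, 8.26, 6.61 and 6.15 CPM in virgin queens (log2 fold change 1.22, adjusted p = 0.832). Both genes with the ortholog Dhc16F, GB55144 and GB41007, were highest in CO2-treated queen 5, at 528 and 43.0 CPM, and had log2 fold changes of 1.84 and 2.22. Without that queen these were 0.86 and 1.23, and that of Klp98A was 1.24. GB51673 (Dhc93AB) had 0.91. The median of the 5 genes was 1.84, and 4 had an unadjusted p under 0.05 (2.62% of all genes in that direction). Of the 592 genes with an ortholog name, chosen by the study on these same queens, 77 had such a p with a positive value. Without virgin queens 2 and 1 the median of the 5 genes was 1.13 and none of them had such a p. In that fit 233 of 12907 genes had such a p with a positive value, against 341 of 13038 with all queens.

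None of the 5 genes that took the largest share of counts passed the test, and in 3 of them virgin queens 6 and 4 were far above virgin queens 2 and 1. GB49544, an ID without a name, had 17955, 29134, 8672 and 44905 CPM in CO2-treated queens 5, 2, 1 and 7, against 27225, 25150, 1118 and 1259 CPM in virgin queens 6, 4, 2 and 1. GB43571, also without a name, had 10722, 14874, 5591 and 12532 CPM in CO2-treated queens, against 15336, 13147, 128 and 78.7 CPM in virgin queens. GB49876, the ortholog of Cyp6a13, had 7628, 6597, 3716 and 10549 CPM in CO2-treated queens, against 12397, 6275, 99.7 and 44.5 CPM in virgin queens. In these 3 genes the CO2-treated queens were near virgin queens 6 and 4, with queen 1 the lowest of them. Their log2 fold changes were 0.88, 0.61 and 0.60 (adjusted p = 0.933, 0.956 and 0.956 by edgeR's quasi-likelihood test), and -0.057, -0.38 and -0.39 without virgin queens 2 and 1. The other 2 were RfaBp, with a log2 fold change of 0.55 (0.19 without those virgin queens), and GB43276, with -0.44 (-0.011 without them).

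That gap ran through many genes. Of those 10297 better counted genes, both virgin queens 6 and 4 were at least 8 times above both virgin queens 2 and 1 in 65 genes, and no gene had the opposite gap. No other way of pairing the virgin queens, and no pairing of the CO2-treated queens, gave any gene at 8 times. In 63 of the 65 genes all 4 CO2-treated queens were above virgin queens 2 and 1, and in 8 they were all below virgin queens 6 and 4. The 65 genes had a median log2 fold change of 0.54 and none passed the threshold. Because the 65 genes were picked for low levels in virgin queens 2 and 1, these counts and this median partly follow from that choice.

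Marker lists for other tissues, chosen with earlier results known, differed between single queens. The 17 muscle genes summed to 3792, 10238, 2495 and 1186 CPM in CO2-treated queens 5, 2, 1 and 7, against 7066, 1572, 1406 and 1583 CPM in virgin queens 6, 4, 2 and 1. Among them 8 had positive and 9 negative log2 fold changes and none had an unadjusted p under 0.05. Those with the smallest p, sls (GB47977), Unc-89 (GB46705), bt (GB55483), all giant proteins of the sarcomere, and GB45464 (Strn-Mlck) had log2 fold changes of 1.14, 1.19, 1.16 and 1.28. Without CO2-treated queen 2 those of sls, Unc-89 and bt were 0.046, 0.35 and 0.24. The median of the 17 genes was -0.18, and -0.44 without virgin queens 2 and 1.

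The 2 haemocyte genes summed to 3328, 775, 838 and 1340 CPM in CO2-treated queens, against 1446, 610, 319 and 322 CPM in virgin queens. The 3 fat body genes summed to between 5557 and 8666 CPM in CO2-treated queens and between 2200 and 7148 CPM in virgin queens, and the storage protein genes GB51698 and GB51697, both with the ortholog Lsp2, had log2 fold changes of 1.59 and -0.23. The 3 cuticle genes summed to 6732, 3259, 1909 and 3127 CPM in CO2-treated queens, against 2225, 1454, 273 and 403 CPM in virgin queens. Nearly all of that was GB43112 (CG13214, a cuticular protein), whose log2 fold change was 1.8 (adjusted p = 0.832), and 1.05 without virgin queens 2 and 1. GB48861 and GB52161, the other cuticle genes, had -0.28 and -0.20. The median of the cuticle genes was -0.20, and 0.91 without virgin queens 2 and 1. The part of these tissues in the results above was not tested.

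**Figure D4:**
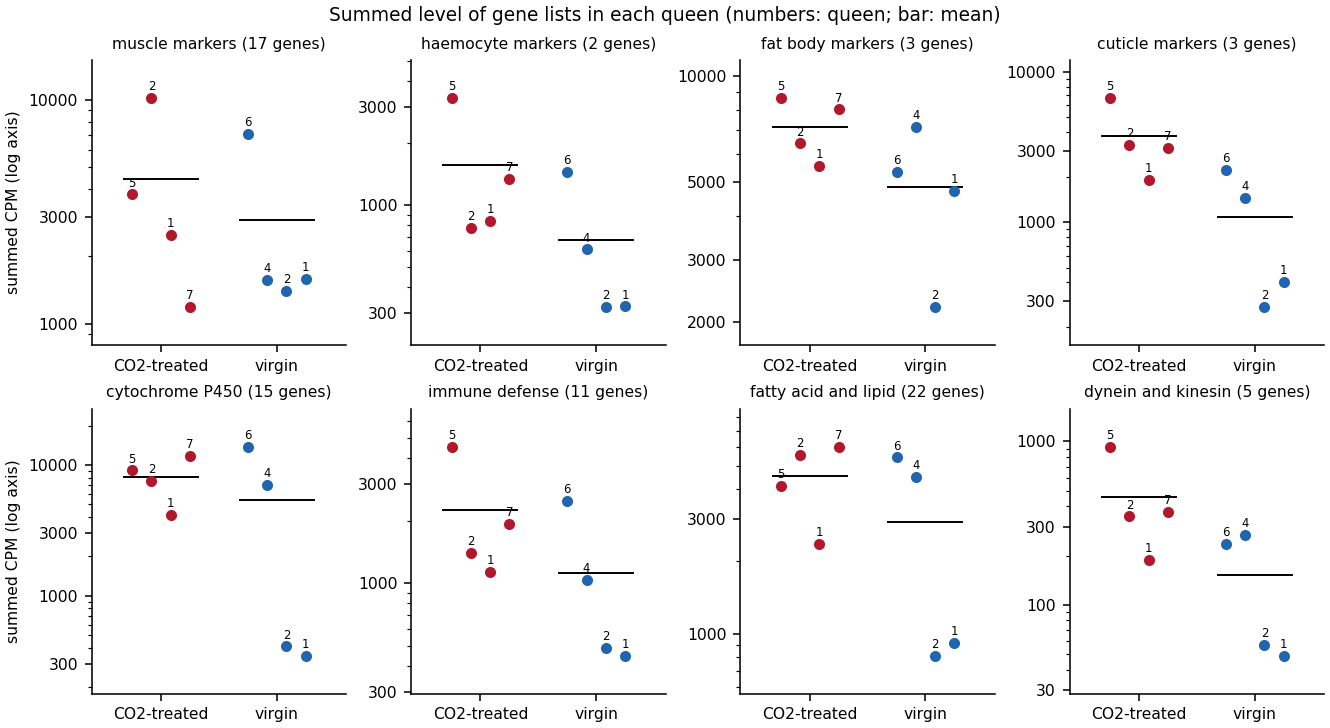
Summed CPM on a log axis of 4 marker lists (top row) and 4 functional lists (bottom row) in each queen; red points are CO2-treated queens, blue points virgin queens, numbers name the queen and bars are means. Virgin queens 2 and 1 are the 2 lowest queens in the cytochrome P450, immune, lipid, motor, haemocyte and cuticle lists, and CO2-treated queen 5 is the highest in the haemocyte, cuticle, fat body, immune and motor lists. Single genes make up most of some sums. In CO2-treated queen 5, Hml, counted in 2 lists, had 3261 CPM of 3328 (haemocyte) and of 4542 (immune), and RfaBp 8516 of 8666 (fat body). In virgin queen 6, GB49876 had 12397 CPM of 13866 (cytochrome P450).

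CO2-treated queen 5 also carried single genes. Among separated genes whose average log2 CPM reached 1, the largest positive fold change was that of GB55450, an ID without a name, with 34.1, 1.82, 2.44 and 3.09 CPM in CO2-treated queens 5, 2, 1 and 7, against 1.79, 1.29, 0.0493 and 0.154 CPM in virgin queens 6, 4, 2 and 1. CO2-treated queen 2 lay barely above virgin queen 6, whereas CO2-treated queens 1 and 7 were further above it. Its log2 fold change of 3.69 (SE 1.18, quasi-likelihood adjusted p = 0.832) was 1.62 without CO2-treated queen 5.

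The choice of test set how many genes were called. The exact test of edgeR with a single dispersion for all genes called 151 genes (1.16%), 117 with higher (0.897%) and 34 with lower levels (0.261%) in CO2-treated queens. Of the 117, 47 had separated groups (2.05% of all genes in that direction). In the quasi-likelihood test 88 of the 117 had an unadjusted p under 0.05 (2.62% of all genes in that direction) and 2 had an adjusted p under 0.05. The 117 were called from the same queens, so these counts partly follow from that choice. CO2-treated queen 5 was the highest CO2-treated queen in 53 of the 117, against 3672 of all 13038 genes (28.2%). In 30 of the 117 it was more than 2 times above each of the other 3, a count not taken over all genes. Of the 34, 5 had separated groups (2.39% of all genes in that direction) and 24 had an unadjusted p under 0.05 in the quasi-likelihood test (3.2%). All 117 and all 34 kept their sign in the quasi-likelihood fit without CO2-treated queen 5. That fit kept every other queen from which these genes had been called, so the kept signs largely follow from that choice. With a dispersion for each gene, the exact test called 18 genes and DESeq2's Wald test 20, of which 14 were shared.

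**Figure D5:**
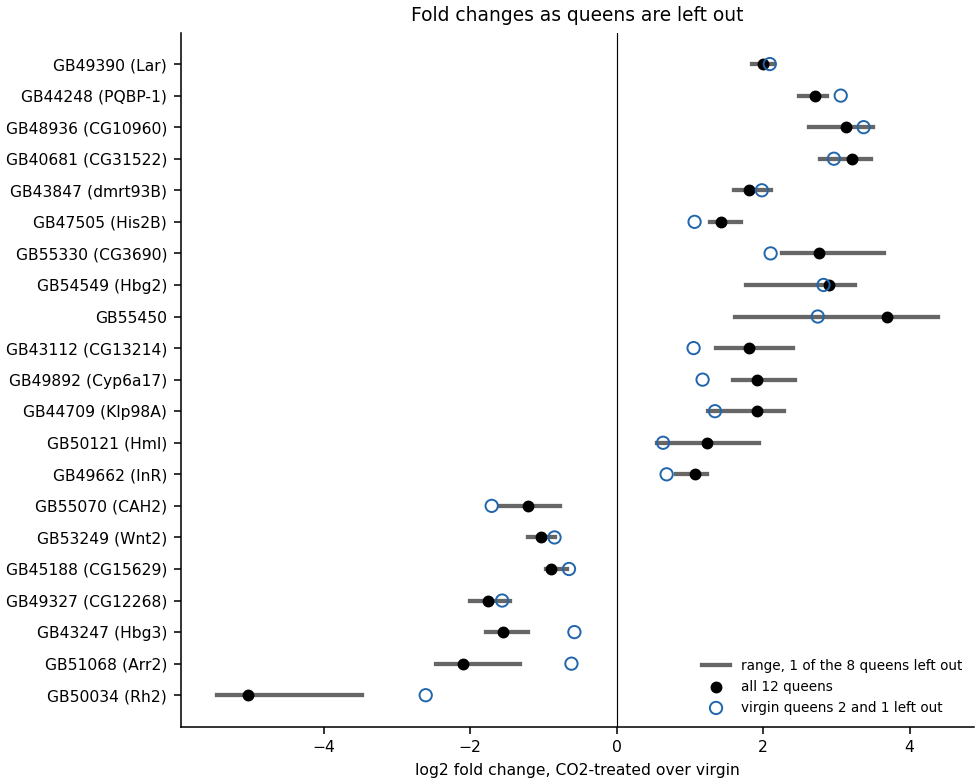
Log2 fold changes of 21 genes with all 12 queens (black points), over the 8 fits that each left out 1 CO2-treated or virgin queen (grey bars, lowest to highest) and without virgin queens 2 and 1 (open blue circles). Lar stays between 1.85 and 2.15, whereas Rh2 reaches -2.61 and Arr2 -0.62 without virgin queens 2 and 1.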

How the data were processed

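Per the labels and the study's methods, the authors sequenced single-end reads of queen brains on an Illumina HiSeq, checked them with FastQC, trimmed them with Trimmomatic, removed ribosomal reads with SortMeRna, aligned them with TopHat to Amel 4.5 and counted them per gene with SAMtools idxstats; versions are not given in the sources used here, and lane assignment of single queens was not used here. The deposited raw counts, without normalization, were used as they stand. A second deposited table of rescaled values was not used.

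The analysis used R 4.3.3 and edgeR 4.0.16: genes with at least 10 counts summed over 12 libraries, TMM factors, a quasi-likelihood F-test on all 12 queens in 3 groups, contrast CO2-treated over virgin, and Benjamini-Hochberg adjustment over 13038 genes with a threshold of 0.05. Residual degrees of freedom were 9, prior ones 4.25. A standard error (SE) was taken as the size of a log2 fold change over the root of its F statistic.

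Named genes were every gene past the threshold, the 12 per direction with the smallest p and the 8 with the largest fold change (average log2 CPM of at least 1, no overlap of the groups), list members (all of them in lists of up to 8, otherwise the 4 with the smallest p), and the 5 genes with most counts; IDs without a name were kept only if past the threshold or among the first 4. Members and lists were chosen with earlier results of these data known. Names are Drosophila orthologs from the study's supplementary lists (592 of 1088 listed genes) or RefSeq symbols matched by accession (222 matched, assembly Amel_HAv3.1). Because only genes those lists name could be placed, lists of gustatory receptors, amine and neuropeptide receptors, respiratory chain, ribosomal proteins, glia and royal jelly proteins had no member and are not reported.

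Alternatives were DESeq2 1.42.0, exact tests, size factors, total counts, other filters, a robust fit, the 8 queens alone, the queen number or the suffix of sample titles as a term, each queen left out, and, added after the data were seen, virgin queens 2 and 1 left out. Summaries used pandas 2.3.3 and numpy 2.4.6 under Python 3.11.15, and plots matplotlib 3.10.9.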

Additional observations from a re-analysis of the deposited data

Results flagged for a closer look

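In groups of 4 queens, 18 of 176 gene and group combinations among the named genes had 1 queen far from the other 3. The rule was applied to CPM without logs, and many of these genes were picked by p or fold change. The count is therefore not compared with chance. CO2-treated queen 5 was the distant, highest queen in 6 of them: GB55144 (Dhc16F, 528 CPM), GB46814 (Cyp6a2, 46.5 CPM), GB41007 (Dhc16F, 43.0 CPM), GB55450 (34.1 CPM), GB45938 (9.35 CPM) and GB48861 (CG5494, 2.66 CPM). CO2-treated queen 1 was distant for GB48936 (CG10960, 11.6 CPM) and GB42219 (desat1, 0.625 CPM), and CO2-treated queen 2 for GB47977 (sls, 5099 CPM).

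Virgin queen 6 was distant for GB52161 (CG32405, 52.6 CPM), GB46223 (Obp56d, 45.1 CPM), GB55330 (CG3690, 3.52 CPM), GB47206 (3.09 CPM) and GB42219 (0.0717 CPM, against 0 in the other 3). Virgin queen 2 was distant for GB45188 (CG15629, 27.6 CPM), GB52193 (7.35 CPM) and GB45464 (Strn-Mlck, 4.49 CPM), and virgin queen 1 for GB48703 (Or85b, 0.717 CPM). All of these queens were the highest of their group.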

How the results depend on the processing

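The 2 calls became 0 with total counts without TMM factors, in the fit to the 8 queens alone and with the queen number as a replicate block. Lar alone was called with the title suffix as a term. It was also the only call with at least 10 counts in every library, where PQBP-1 was not tested. There were 2 calls with DESeq2 size factors, the robust fit and 3 other filters. DESeq2's Wald test called 20 genes, the exact test 18 with a dispersion per gene and 151 with a common one; of genes on the lists these called 4, 4 and 24, against 1 in the quasi-likelihood fit. Leaving out each queen gave 1 to 2 calls, of which 1 to 2 were Lar or PQBP-1, and 1 call on the lists; PQBP-1 was lost on leaving out any single queen other than CO2-treated queen 5. Without virgin queens 2 and 1 there were 2 calls, Lar and GB45748, of which 1 was among the original 2. Separated groups numbered 550 (201 higher) with total counts and 514 (221 higher) with edgeR's filterByExpr, against 578.

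Queen numbers 1 and 2 occur in both groups but name different animals; same-numbered queens deviated from their group means with correlations of 0.51 and -0.28. With the block, 735 genes had an unadjusted p under 0.05 (520 positive), against 758 (341 positive), and the log2 fold change changed sign for GB45906 (0.12), GB45913 (0.28), GB51697 (0.20) and GB52161 (2.25).

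Other values changed sign elsewhere, none past the threshold: GB52161 with the suffix term (0.65); without virgin queens 2 and 1, GB40139 (0.21), GB40665 (0.015), GB45495 (-0.074), GB53755 (-0.13), GB51381 (0.50), GB49544 (-0.057), GB43571 (-0.38), GB49876 (-0.39), GB48861 (0.91), GB51697 (0.088), GB47482 (-0.58) and GB42557 (-0.42). With single queens left out, ranges were -2.37 to 0.14 for GB53116, -0.59 to 1.89 for GB52161, -0.50 to 1.14 for GB42557, -0.22 to 0.76 for GB47482, -0.89 to 0.25 for GB51381, -1.27 to 1.06 for GB48861 and -0.72 to 0.042 for GB51697. The cause was not tested.

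At 4 queens a group the median 95% interval of 1.51-fold to either side limits what small differences can be seen. That interval holds for a single gene without adjustment, whereas calls also had to pass the adjustment over every gene tested. Larger estimated differences went uncalled too. GB40681 (log2 fold change 3.22, quasi-likelihood adjusted p = 0.115) and GB55330 (2.77, adjusted p = 0.609 by the same test) are examples. Sisters of 1 colony cannot show how far results reach beyond that colony.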
